A study of Homo sapiens with 2 samples.

Results

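DDIT4, its relative DDIT4L, the 3 sestrin genes SESN1, SESN2 and SESN3, and the genes TSC1, TSC2, RHEB, DEPTOR and MTOR form a set of 10 genes around the growth kinase complex mTORC1. They were chosen by name, with DDIT4's difference between the arrays already known, and are 10 of 18377 genes with a value. RNA of LP-1, a cell line established from a human multiple myeloma, was measured on a pair of Affymetrix arrays that probe whole transcripts. HIF2A cells had been infected with the vector pRUF-IRES-GFP-HIF2A, which carries the complete coding sequence of human HIF-2α, a subunit of the hypoxia-inducible factor encoded by EPAS1. Vector control cells carried pRUF-IRES-GFP without that insert. Both are stable lines of the same parent, and the labels do not say whether either is 1 clone or a mixed population.

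mTORC1 is the complex of the kinase MTOR that drives protein synthesis and restrains autophagy when nutrients and growth signals allow it. The small GTPase RHEB switches the kinase on, and the TSC1-TSC2 complex holds RHEB in its inactive form. The DDIT4 protein, also called REDD1, works through TSC1-TSC2 to lower mTORC1 activity and is known for its induction by hypoxia and other stresses. Sestrins act on a separate, amino acid sensing arm, where they bind GATOR2 and so restrain the Rag GTPases that bring mTORC1 to the lysosome. DEPTOR binds MTOR directly as an inhibitor and is known for high expression in a subset of myelomas.

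DDIT4 was about 3-fold higher in HIF2A cells, and no other gene of the set differed by as much as 1.5-fold. The sestrin genes, TSC1, TSC2 and MTOR were each slightly higher and RHEB and DEPTOR slightly lower. Since 1 array stands for each group, these differences have no replicate check, no SE and no p-value. Whether more cells carried DDIT4 RNA or each cell carried more cannot be told apart in RNA from a whole culture.

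The stretch of sequence around the start of DDIT4 is shown because hypoxia-inducible factors recognise a short core, ACGTG or GCGTG, and that of DDIT4L is shown as the window of the closest relative. Each runs from 250 bases before to 50 bases after the gene's start in RefSeq on GRCh38.p14, at chr10:72273674-72273973 on the plus strand for DDIT4 and chr4:100190419-100190718 on the minus strand for DDIT4L. Capitals mark each ACGTG or GCGTG on either strand.
DDIT4: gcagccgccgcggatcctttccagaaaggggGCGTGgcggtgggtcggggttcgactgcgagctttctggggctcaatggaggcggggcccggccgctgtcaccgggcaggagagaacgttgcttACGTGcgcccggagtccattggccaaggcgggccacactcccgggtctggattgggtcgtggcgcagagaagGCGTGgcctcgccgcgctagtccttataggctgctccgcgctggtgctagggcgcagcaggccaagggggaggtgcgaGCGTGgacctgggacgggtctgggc
DDIT4L: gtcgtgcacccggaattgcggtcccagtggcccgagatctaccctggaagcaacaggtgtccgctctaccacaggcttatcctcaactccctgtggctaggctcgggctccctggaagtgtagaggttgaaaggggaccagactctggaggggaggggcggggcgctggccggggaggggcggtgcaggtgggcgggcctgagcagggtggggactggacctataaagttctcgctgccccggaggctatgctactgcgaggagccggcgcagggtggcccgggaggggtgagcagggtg

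The DDIT4 window holds 4 matches, 1 of ACGTG and 3 of GCGTG, and the DDIT4L window holds none. Those before the start of DDIT4 begin 219, 125 and 53 bases upstream. Such cores are common: 48.4% of 35116 windows of the same length hold at least 1, and 4.4% hold 4 or more. Windows of 9 of the 10 genes were examined, with 3 for SESN1 and 2 for TSC2. Windows on chromosome 8, where DEPTOR lies, were left out, so DEPTOR was not examined for these cores. MTOR, RHEB and 1 window each of SESN1 and TSC2 hold a core, which in TSC2 is read on both strands of a CACGTG, the E-box bound by other factors too. SESN2, SESN3 and TSC1 hold none in theirs. A match is a string of letters and no measurement of binding.

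The signal of DDIT4 was 8.19 in HIF2A cells, against 6.62 in vector control cells. Signals are on the log2 scale, so HIF2A minus vector control gives a difference of 1.57 log2 units, or 2.97-fold. Of the 11469 genes bright enough to be compared, DDIT4 ranked 15th by this difference. A gene was compared when it reached 4.01 in at least 1 array, which is the median, across probe sets, of their mean signals. Over those genes the median difference was 0.03 and the robust SD, a scaled median absolute deviation, was 0.34. DDIT4 lay 4.52 of these SDs from the median, a spread between genes and not between replicate cultures.

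Of the 9 compared genes of the set, 1 was 2-fold or more higher in HIF2A cells, DDIT4, which was chosen for it, and 0 were 2-fold or more lower. The shares over all compared genes were 0.706% higher and 0.732% lower by that fold. The shares at 1.5-fold were 5.67% higher and 4.76% lower, and the set's counts there were again 1 and 0. Without DDIT4, the remaining 8 compared genes differed by 0.24 at the median, with 6 higher and 2 lower, while 52.6% of all compared genes were higher and 46.1% lower by any amount. All 9 compared genes reached the limit in both arrays.

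**Figure D1:**
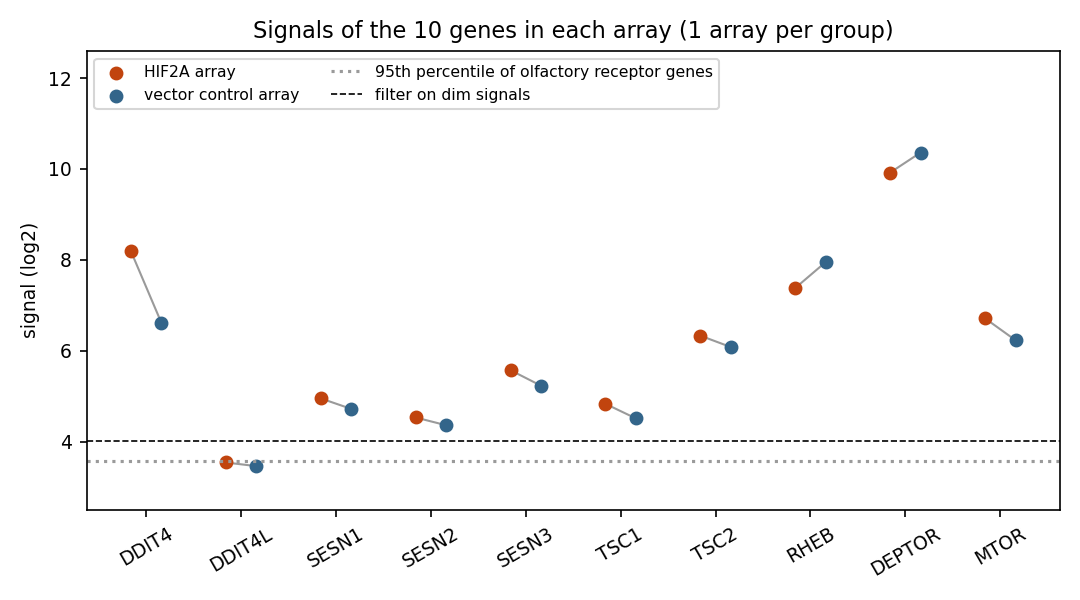
Signal on the log2 scale of each of the 10 genes in HIF2A cells (left point) and vector control cells (right point), 1 array per group, with the filter on dim signals dashed and the background level of olfactory receptor genes dotted. DDIT4 shows the steepest line, at 8.19 in HIF2A cells against 6.62 in vector control cells, RHEB and DEPTOR slope the other way, and DDIT4L lies under both limits. Heights of different genes come from different probes and are not compared.

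DDIT4L, which encodes REDD2 and like DDIT4 acts as an inhibitor of mTORC1, had 3.54 in HIF2A cells, against 3.46 in vector control cells. Both values lie under the 95th percentile of 359 olfactory receptor genes, taken as background, which was 3.58 and 3.59 in the HIF2A and vector control arrays. DDIT4L was therefore not above background in either line, and no fold is given for it.

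The sestrin genes differed little and in the same direction. SESN1, known as a p53 target, had 4.95 in HIF2A cells, against 4.72 in vector control cells, a difference of 0.23. SESN2, which encodes a leucine sensor and is induced by p53 and by the stress factor ATF4, had 4.53 in HIF2A cells, against 4.36 in vector control cells, a difference of 0.17. SESN3, known as a target of FOXO factors, had 5.57 in HIF2A cells, against 5.23 in vector control cells, a difference of 0.34. Of all compared genes 72.1%, 65.5% and 81.2% had a smaller difference than SESN1, SESN2 and SESN3, so all 3 lay within the bulk of genes.

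TSC1 had 4.83 in HIF2A cells, against 4.51 in vector control cells, a difference of 0.32. TSC2, which carries the domain that inactivates RHEB, had 6.33 in HIF2A cells, against 6.08 in vector control cells, a difference of 0.25. RHEB, the GTPase they restrain, went the other way on both of its probe sets. Its brighter probe set had 7.38 in HIF2A cells, against 7.95 in vector control cells, and the other had 6.86 in HIF2A cells, against 7.42 in vector control cells. The differences were -0.57 and -0.56, the first of them 1.48-fold lower, and 4.9% of compared genes had a difference below that of the brighter probe set. With TSC1 and TSC2 it made 3 compared genes of the TSC complex and RHEB list, whose median of 0.25 came to -0.16 under the 75th percentile filter, 0.14 with 32 added to the signals on the linear scale, 0.13 after subtracting neighbours and 0.11 with no filter. RHEB has pseudogenes close to it in sequence, and which of the probe sets can bind their transcripts was not analysed here.

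MTOR, the kinase itself, had 6.71 in HIF2A cells, against 6.23 in vector control cells. Its difference of 0.48, or 1.39-fold, was the highest of the set after DDIT4, and 90.2% of compared genes had a smaller one. DEPTOR had 9.92 in HIF2A cells, against 10.36 in vector control cells, a difference of -0.44, or 1.36-fold lower. Its transcript stood far above background in both lines.

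**Figure D2:**
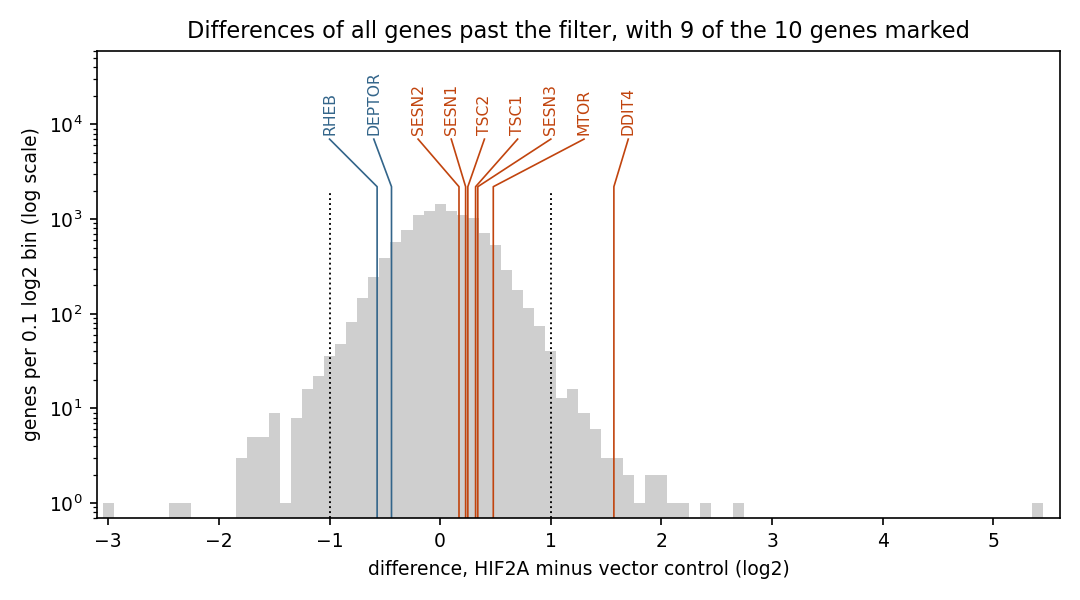
Number of genes, on a log scale, by difference between the HIF2A and vector control arrays in bins of 0.1 log2 units, for the 11469 compared genes, with 9 of the 10 genes marked and dotted lines at 2-fold. DDIT4, at 1.57, stands in the thin upper tail, and the other 8 fall between -0.57 and 0.48.

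In places along the genome neighbouring genes shifted together in these arrays, so each gene was set beside the median difference of its 20 nearest compared genes on the chromosome. DDIT4's neighbours on chromosome 10, 12 of them lower and 7 higher, had a median of -0.11, opposite to DDIT4. DEPTOR's on chromosome 8 had a median of -0.26, with 16 of 20 lower, and relative to it DEPTOR's difference was -0.19. RHEB's on chromosome 7 had a median of -0.20 and left RHEB at -0.38. That chromosome is the one of the RHEB gene, and the locus its brighter probe set was designed to was not analysed here. TSC1's on chromosome 9 had a median of 0.20, which left TSC1 at 0.13. TSC2, with a neighbour median of 0.12 on chromosome 16, was left at 0.13 too. MTOR's on chromosome 1 had a median of 0.02 and left MTOR at 0.46. Among the sestrin genes the subtraction left SESN1 at 0.22, SESN2 at 0.35, beside neighbours at -0.18, and SESN3 at 0.20, beside neighbours at 0.14. The part of such shared shifts in each gene's difference was not tested.

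**Figure D3:**
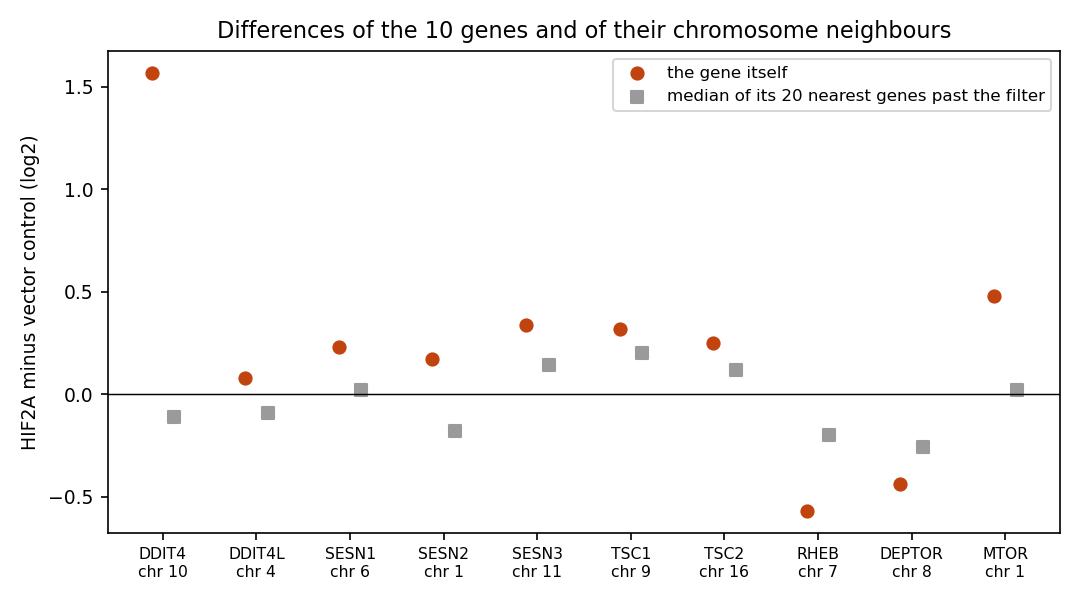
Difference between the HIF2A and vector control arrays in log2 units for each of the 10 genes (circles) and the median of its 20 nearest compared genes on the same chromosome (squares). The circle of DDIT4, at 1.57, stands far from its square at -0.11, whereas DEPTOR, at -0.44, lies close to its square at -0.26.

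The genes nearest to DDIT4 in their difference over the 2 arrays were SEC24A and CPT1A just above it, at 1.60 and 1.59, and DUSP5 and PLEKHA2 just below, at 1.53 and 1.46. SEC24A encodes a coat protein of vesicles leaving the endoplasmic reticulum, CPT1A the enzyme that admits long-chain fatty acids to mitochondria, and DUSP5 a phosphatase of ERK. With 2 arrays the likeness is that of a single difference.

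Transcription factors known to act on DDIT4 or sestrin genes differed unevenly. EPAS1, the introduced gene, had 9.05 in HIF2A cells, against 3.70 in vector control cells, while HIF1A differed by 0.07. FOXO1 was higher, at 7.09 in HIF2A cells against 6.35 in vector control cells, and FOXO3 was lower, at 4.92 in HIF2A cells against 5.57 in vector control cells. NR3C1, the glucocorticoid receptor gene, differed by 0.48, among neighbours with a median of 0.42, and ATF4 by 0.20. Of the 11 factors compared, 2 were at least 1.5-fold higher, EPAS1 and FOXO1, and 1 at least 1.5-fold lower, FOXO3. The shares over all compared genes were 5.67% higher and 4.76% lower by that fold. EPAS1 was introduced with the vector and passed the filter on dim signals only through the HIF2A array, so nothing is read from its place in this count.

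Among genes whose proteins meet DDIT4 or govern its turnover, TXNIP stood out. TXNIP, which binds DDIT4 and is known as an inhibitor of glucose uptake, had 8.54 in HIF2A cells, against 6.61 in vector control cells, a difference of 1.93. In that list of 12 genes 6 were higher and 6 lower, the median was -0.01, and TXNIP was the only 1 at least 1.5-fold apart.

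The subunits of the mTOR complexes and their assembly factors were mostly a little higher. Of 10 compared, which include MTOR and DEPTOR, 8 were higher and 2 lower, with a median of 0.34, beside 52.6% higher over all compared genes. That median came to 0.17 with 32 added and to 0.23 after subtracting neighbours. RPTOR, the subunit that recruits substrates to mTORC1, was the only 1 at least 1.5-fold apart, at 5.80 in HIF2A cells against 5.07 in vector control cells.

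The nutrient arm around the sestrins went both ways. In the list of sestrins, GATOR and KICSTOR 15 genes were compared, 9 higher and 6 lower, with a median of 0.04, or -0.10 under the 75th percentile filter. SEH1L, a subunit of GATOR2 and of the nuclear pore, was lower by 1.58-fold, at 7.82 in HIF2A cells against 8.48 in vector control cells. The Rag GTPases, Ragulator and folliculin counted 4 higher and 7 lower among 12 genes, and the median was -0.08, or -0.19 under that filter. Beside the counts of both lists, 52.6% of all compared genes were higher and 46.1% lower by any amount. CASTOR1, among the 9 higher of the sestrin list, passed the filter on dim signals only through the HIF2A array. Nothing is read from its place in that count. LAMTOR3, a Ragulator subunit that helps anchor the Rags to the lysosome, had 5.33 in HIF2A cells, against 6.10 in vector control cells. The 11 amino acid transporters differed by 0.11 at the median, or -0.03 after subtracting neighbours. SLC7A11, the cystine transporter, was the only 1 at least 1.5-fold apart, at 3.85 in HIF2A cells against 4.54 in vector control cells. Its difference was -0.69, among neighbours with a median of -0.55. SLC7A11 passed the filter on dim signals only through the vector control array, so nothing is read from its being lower.

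Upstream of TSC1-TSC2, the PI3K and AKT genes were mostly higher, 10 of 13, with a median of 0.31 and 4 at least 1.5-fold higher, where all compared genes had 52.6% higher and 5.67% by that fold. PIK3CD, PHLPP2 and PIK3IP1, all on the higher side, reached the limit of 4.01 only through the HIF2A array, so nothing is read from these counts. The median was 0.18 after subtracting neighbours and 0.16 with 32 added. PIK3CB, a catalytic PI3K subunit, had 6.60 in HIF2A cells, against 5.71 in vector control cells. INPPL1, a phosphatase that removes the PI3K product, had 7.01 in HIF2A cells, against 6.20 in vector control cells. The AKT phosphatase gene PHLPP2 was below the olfactory receptor level in vector control cells, and its 4.28 in HIF2A cells was at least 1.61-fold higher. IRS2, an adaptor of the insulin receptor, differed by 0.66. PIK3CB and IRS2 thus act in the pathway's signalling, and INPPL1 and PHLPP2 against it.

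The AMPK and LKB1 list had a median of -0.07 over 9 genes, which turned to 0.23 under the 75th percentile filter. PRKAG2, at 3.99 in HIF2A cells against 4.24 in vector control cells, passed the filter on dim signals only through the vector control array. Nothing is read from its being lower, nor from the sign of the list's median. STK11, which encodes LKB1, the kinase that activates AMPK, was the only gene of this list at least 1.5-fold apart. It had 5.72 in HIF2A cells against 4.90 in vector control cells.

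Of 17 genes of mTORC1's outputs, 11 were higher and 6 lower, and their median was 0.29, or 0.17 with 32 added. Over all compared genes 52.6% were higher and 46.1% lower by any amount, and 5.67% were higher and 4.76% lower by at least 1.5-fold. EIF4E, among the 6 lower, passed the filter on dim signals only through the vector control array. Nothing is read from its place in this count. The translation repressor gene EIF4EBP1, whose product mTORC1 phosphorylates to free the cap-binding factor, was 2.25-fold lower, at 6.89 in HIF2A cells against 8.06 in vector control cells. It was the only gene of this list at least 2-fold apart, and its neighbours had a median of -0.02. LPIN1, a lipid enzyme and mTORC1 substrate, was higher by 0.89, the autophagy gene ATG13 by 0.66 and the translation inhibitor gene PDCD4 by 0.59. LARP1, which controls the translation of ribosomal protein messages, was higher by 0.66 among neighbours with a median of 0.43.

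**Figure D4:**
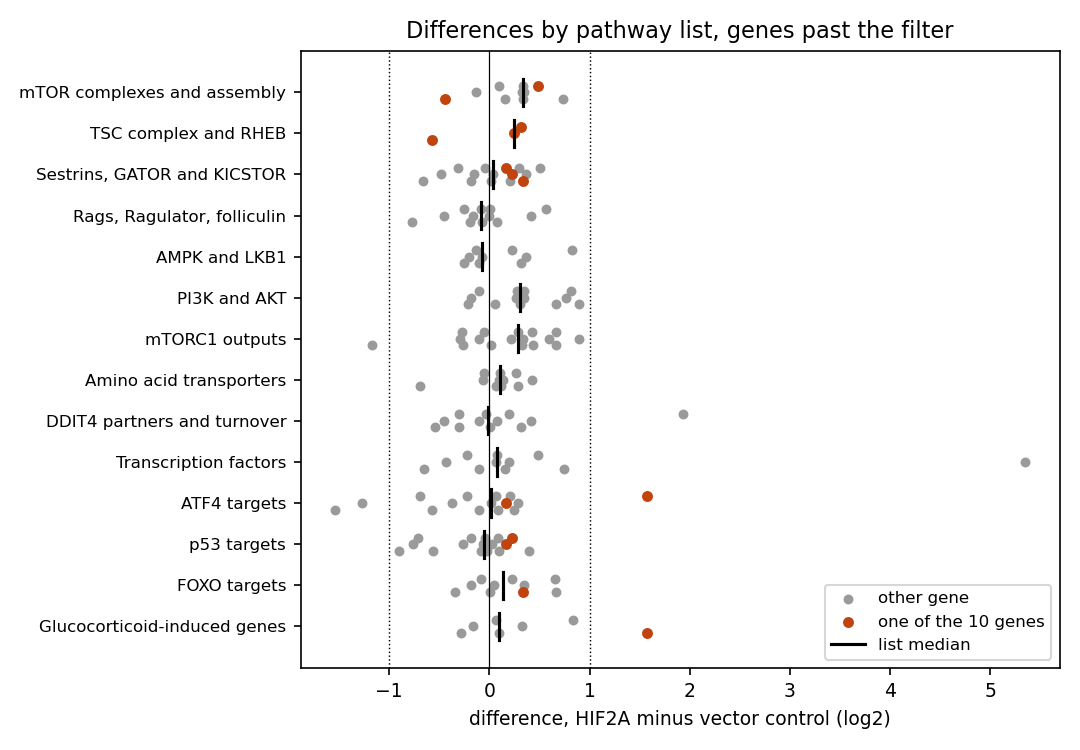
Difference between the HIF2A and vector control arrays in log2 units for each compared gene of the pathway lists, 1 list per row, with the 10 genes in colour, list medians as bars and dotted lines at 2-fold. Medians run from -0.08 to 0.34, and DDIT4, TXNIP, EPAS1, EIF4EBP1, ASNS and PSAT1 lie beyond the 2-fold lines.

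The joined pathway lists, without the 10 genes, held 141 compared genes and a median of 0.05. Those higher by 1.5-fold or more numbered 15 and those lower 10, where the shares over all compared genes were 5.67% and 4.76%. The 15 include EPAS1 and PHLPP2, and the 10 include SLC7A11. Each of these passed the filter on dim signals only through the array where it was higher, so nothing is read from these counts. All 9 plasma cell and myeloma markers examined were past the filter, 4 higher and 5 lower, with a median of -0.01. Those at least 1.5-fold apart were 2, both lower. Of these, TNFRSF17, which encodes the plasma cell receptor BCMA, was 2.04-fold lower, at 7.68 in HIF2A cells against 8.71 in vector control cells. FGFR3, a receptor tyrosine kinase gene, was 1.58-fold lower, at 5.14 in HIF2A cells against 5.80 in vector control cells, and the part of either in the results on the set was not tested. The markers of B cells, 3 with a value, and of T and NK cells, 4 with a value, were all under the filter. Of 4 myeloid markers 1 was past it, CD14 at 4.44 in HIF2A cells against 4.29 in vector control cells, and of 4 stromal markers 2 were, COL1A1 at 4.59 in HIF2A cells against 4.72 in vector control cells, and COL1A2 at 4.07 in HIF2A cells against 3.80 in vector control cells.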

How the data were processed

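RNA of LP-1 cells was hybridised to 2 arrays, 1 per group. The authors deposited 1 log2 signal for each probe set and array. Per the submitters' processing notes these come from Affymetrix Expression Console, whose algorithm, version, background correction and genome build were not given in the sources used here. That the base is 2 follows from the top value of 13.97, above the 11.09 that a 16-bit scanner could reach in natural logs. Of 28869 probe sets 19310 have a single gene symbol in the array annotation, and 19279 of these were matched to RefSeq by Entrez number for current symbols and gene order. A gene took its probe set with the highest mean. All 10 genes had one, 11 probe sets in all.

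With 1 array per group there is no test, and the number of arrays limits the precision. The alternatives were other scalings of the columns, an offset of 32, other filters, probe sets and folds, and subtraction of 20 neighbours. The 10 genes, the pathway lists and all rules were chosen with earlier results of these data known. Beside the 10 genes, up to 4 genes per list and direction at least 1.5-fold apart are named. EPAS1, HIF1A, TXNIP, ATF4, NR3C1, FOXO1 and FOXO3 are named too, with the 2 genes on each side of DDIT4 in the order of differences. CD14, COL1A1, COL1A2, PIK3CD, PIK3IP1, STC2, GDF15, CASTOR1, EIF4E and PRKAG2 were picked after their values were seen. Genes of a list without a single-symbol probe set were not analysed here. The calculations were tested on simulated data. Python 3.11.15, numpy 2.4.6, pandas 2.3.3, statsmodels 0.14.6 and matplotlib 3.10.9 were used.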

Additional observations from a re-analysis of the deposited data

How the results depend on the processing

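No paired analysis was possible because each group has 1 array, and no replicate could be left out. DDIT4's difference ran from 1.31, with 32 added on the linear scale, to 1.68, after subtracting neighbours, in 7 settings, and at 3-fold 0 of the 10 genes counted as higher. Of 70 differences of the 10 genes in other settings, 70 kept their sign, but part of them could not change it. An offset keeps the sign by construction, and another choice of probe set can alter only RHEB, which has 2. DDIT4L, not above background, is also counted, so nothing is read from this count. The smallest difference in size for DEPTOR was -0.19 and for RHEB -0.38. Over all genes 18 were higher and 24 lower with 32 added, which shrinks dim genes by construction, 650 and 546 at 1.5-fold, and 14 and 15 at 3-fold. With 32 added, medians were 0.14 for the 9 compared genes of the set and for the TSC complex and RHEB, both 0.25 without it. The medians with 32 added were 0.17 for the mTOR complexes and for mTORC1 outputs, and 0.16 for PI3K and AKT. After subtracting neighbours they were 0.23 for the mTOR complexes, 0.13 for the TSC complex and RHEB, 0.18 for PI3K and AKT, and -0.03, the reverse of the direction, for amino acid transporters. The TSC complex and RHEB list, with 3 compared genes, had 0.11 with no filter or the 25th percentile filter and -0.16, a reversed direction, with the 75th. That filter also gave -0.10 for sestrins, GATOR and KICSTOR, -0.19 for Rags and Ragulator, 0.23, a turned direction as for the sestrin list, for AMPK and LKB1, -0.26 for p53 targets and 0.33 for glucocorticoid-induced genes. A filter changes which genes enter and not their differences. The other 133 of 150 medians moved by less than 0.1 log2 units before rounding, but some near 0 changed sign: ATF4 targets came to -0.08 with the 75th percentile filter and -0.05 after subtracting neighbours, and DDIT4 partners to 0.01 with median centring.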

Other observations

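Known targets of the factors that act on DDIT4 and the sestrins did not share one direction. Of 15 compared ATF4 targets, which include DDIT4 and SESN2, 8 were higher and 7 lower, with a median of 0.02. SLC7A11 passed the filter on dim signals only through the vector control array, and STC2 only through the HIF2A array. Nothing is read from the place of either in these counts. DDIT4 was the only ATF4 target at least 1.5-fold higher. The asparagine synthetase gene ASNS had 6.60 in HIF2A cells against 7.87 in vector control cells. The serine synthesis gene PSAT1 had 7.09 in HIF2A cells against 8.63 in vector control cells. Of 16 p53 targets, among them SESN1 and SESN2, 6 were higher and 10 lower, with a median of -0.05. GDF15, among the 10 lower, passed that filter only through the vector control array, so nothing is read from its place in this count. The p53 targets at least 1.5-fold lower were 3. PHLDA3, an inhibitor of AKT, differed by -0.90, MDM2, the ubiquitin ligase of p53, by -0.76, and the death receptor gene FAS by -0.71. Beside the counts of both lists, the shares over all compared genes were 5.67% higher and 4.76% lower by that fold. By any amount they were 52.6% higher and 46.1% lower.

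FOXO targets had a median of 0.14 over 10 genes, 7 higher and 3 lower. IRS2 and the transcriptional regulator gene CITED2 were at least 1.5-fold higher, at 0.66 and 0.65. The shares over all compared genes were 52.6% higher by any amount and 5.67% higher by that fold. PIK3IP1, among the 7 higher, passed the filter on dim signals only through the HIF2A array, so nothing is read from the counts of higher and lower FOXO targets. Glucocorticoid-induced genes had a median of 0.10 over 7 genes. Besides DDIT4, the MAP kinase phosphatase gene DUSP1 was at least 1.5-fold higher, at 5.89 in HIF2A cells against 5.06 in vector control cells, among neighbours with a median of 0.20.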
